A study of Rattus norvegicus with 9 samples.

Results

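The genes described here are the CC and CX3C chemokines Ccl2, Ccl3, Ccl4, Ccl5, Ccl7, Ccl20 and Cx3cl1 with the receptors Ccr1, Ccr2 and Cx3cr1, chosen by symbol from 32883 genes measured in rat liver. Of these 10 genes, 9 had a row in the count and TPM tables and all 9 were tested. The expression of Ccr2, the main receptor of Ccl2 and Ccl7, was not analysed here. Bulk RNA-seq was made from 9 livers, 3 in each of 3 groups, and the methods describe the study's rats as Sprague-Dawley males aged 8 to 11 weeks. Normal livers came from normal rats, for which the labels give no treatment. Livers of both acute-on-chronic liver failure (ACLF) groups came from rats with a common bile duct ligated for 21 days, which causes biliary cirrhosis, followed by an intraperitoneal dose of 0.25 mg/kg lipopolysaccharide (LPS). Both ACLF groups were then connected through jugular catheters, under isoflurane and with heparin, to an extracorporeal whole-blood circuit that ran for 2 h from 1 h after LPS. In the empty group the circuit held neither cells nor an apheresis column. In the UTOpiA group it held a granulocyte and monocyte apheresis column in tandem with alginate-encapsulated human iPSC-derived hepatocyte-like organoids. The sampling time of ACLF livers was 24 h after LPS. The paper states that rats for sacrifice were picked at random from the survivors of each ACLF group. It also reports very high mortality in the empty group within 24 h of LPS, and the highest survival in the UTOpiA group. The livers compared are thus those of rats that lived to sampling, and the effect of this selection was not tested. The column and the organoids cannot be told apart in this design, and neither can ligation, LPS and the circuit in the comparison of ACLF with normal livers.

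Chemokines are small proteins that guide leukocytes along a gradient by way of G protein-coupled receptors, and they are grouped by the spacing of their first cysteines. Most CC chemokines are secreted, whereas the CX3C chemokine Cx3cl1 (fractalkine) is made on a membrane stalk and shed by metalloproteases. In an injured liver, Kupffer cells, stellate cells, endothelium, biliary epithelium and hepatocytes can all make such ligands. The receptors sit mainly on the monocytes, macrophages, neutrophils and lymphocytes that are recruited.

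Between 14241172 and 17321677 reads were counted per library. Albumin, the main hepatocyte secretory product, was the source of 13.3% to 14.9% of reads in normal livers and of 1.54% to 3.91% in ACLF livers, so all livers held hepatocyte RNA. Levels are given as TPM, a transcript share corrected for gene length, and changes as log2 fold changes from edgeR's quasi-likelihood test on counts scaled by TMM. A gene was called changed where its fold change was above 2 and its p, adjusted by Benjamini-Hochberg over 14089 tested genes, was under 0.05. The scale matters for ACLF livers. On TMM-scaled counts the median log2 fold change over all genes was 0.04 from normal to empty livers and 0.00 from empty to UTOpiA livers, while on log2(TPM + 1) these medians were 0.44 and -0.17. Of the genes called between empty and normal livers, 65.1% were higher in the empty group with edgeR and 82.3% with limma on log2(TPM + 1). The 3 comparisons share groups, so they are given side by side and are not independent of each other.

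Nearly the whole set was raised in ACLF livers of the empty group. Against normal livers, edgeR called 8 of the 9 genes higher, beside 20.7% of all tested genes, and 0 lower, beside 11.1%. DESeq2 also called 8 higher, beside 19.8% of the genes to which it gave an adjusted p. Every empty liver was above every normal liver in TPM for all 9 genes, as for 53.4% of all tested genes. The exception among the calls was Ccl5, with an adjusted p of 0.0346 and a fold change below 2. Over the 9 genes the median log2 change was 5.33, also with Ccl20 at its lower bound, beside 0.04 over all tested genes. It was 4.51 without empty liver 2, and 2.84 with limma on log2(TPM + 1), beside 0.44 over all genes on that scale. Against the same normal livers, 5 of the 9 were called higher in the UTOpiA group (Ccl5, Ccl20, Cx3cl1, Cx3cr1 and Ccr1), beside 18.2% of all tested genes, and 0 lower, beside 6.81%. DESeq2 called 6, with Ccl2 added, beside 17.8%. In TPM 7 of the 9 stood above all normal livers, as did 39% of all tested genes, while Ccl3 and Ccl7 overlapped. The median log2 fold change was 4.21, or 4.04 with Ccl20 at its bound and 2.98 without UTOpiA liver 2. With limma on log2(TPM + 1) it was 1.98, beside 0.28 over all genes. Since these are bulk samples, more cells of a type and more RNA per cell cannot be told apart.

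Between the UTOpiA and empty groups, edgeR called 0 of the 9 genes, and 0% of all tested genes. At an unadjusted p under 0.05, 5 of the 9 were lower in the UTOpiA group (Ccl2, Ccl3, Ccl7, Ccl20 and Cx3cl1), beside 4.56% of all tested genes. A single member, Ccl5, was higher at that level, beside 5.77% of all tested genes. DESeq2 called 3 of the 9 lower (Ccl2, Ccl3 and Ccl20), beside 0.518% of the genes to which it gave an adjusted p, and 0 higher, beside 0.364%. With each of the 9 libraries left out in turn, DESeq2 called Ccl3 lower in 9 fits, Ccl20 in 7 (not without UTOpiA liver 1 or 3) and Ccl2 in 3 (without empty liver 1, empty liver 3 or UTOpiA liver 2). Without UTOpiA liver 2 it called 4 lower, with Cx3cl1 added, beside 2.53%, and Ccl5 higher, beside 1.66%. With edgeR the median log2 change over the 9 genes was -2.07, or -1.18 without empty liver 2. Their TPM ranges did not overlap in 6 genes. In 5 of these every UTOpiA liver was below every empty liver (Ccl2, Ccl3, Ccl4, Ccl7 and Ccl20), as were 8.62% of all tested genes, and Ccl5 was above, as were 2.43%. On TMM-scaled counts the ranges of Ccl4 overlapped, which leaves 4 genes below. Ccl5 stayed above on that scale by a very narrow gap. With 3 livers against 3, an exact permutation test cannot give a p below 0.1, and all 6 reached that value.

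**Figure D1:**
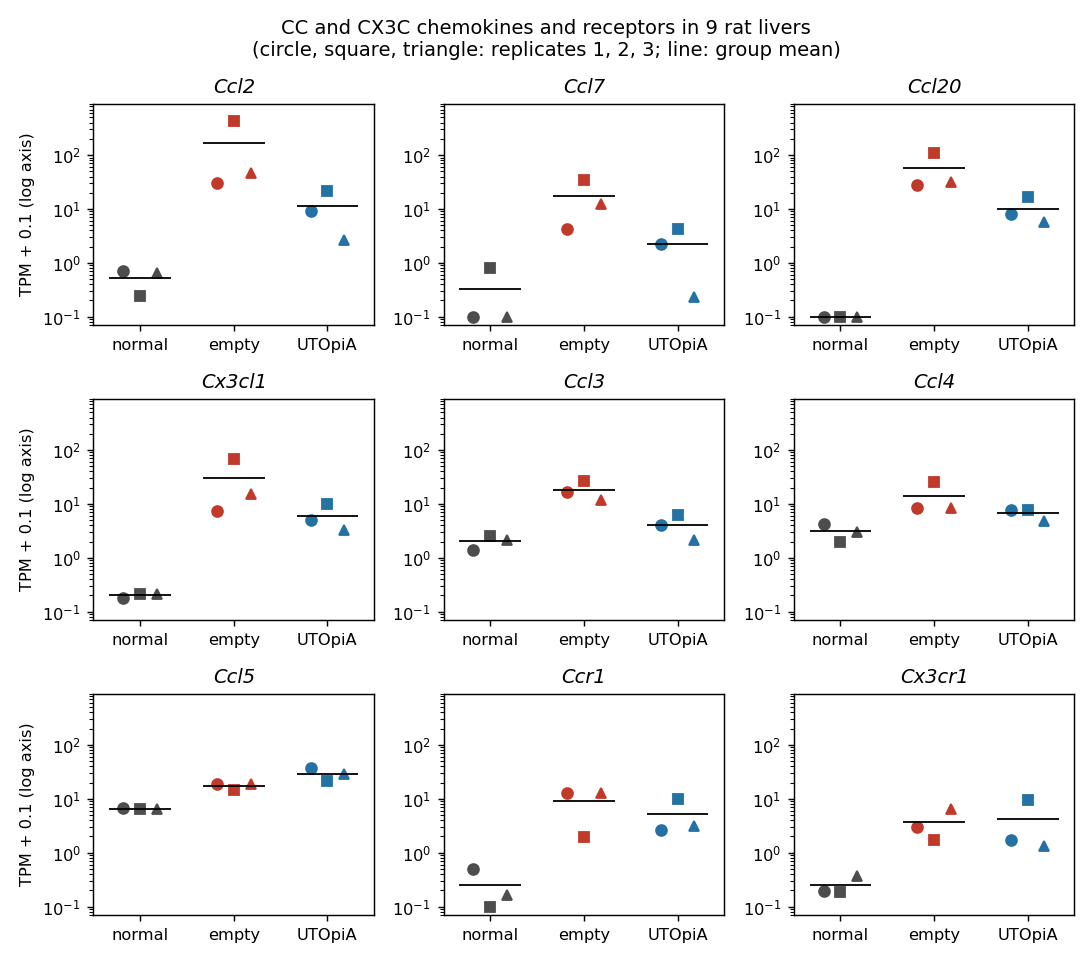
TPM of the 9 genes in each of the 9 livers, plotted as TPM + 0.1 on a log axis, with the replicate number as the marker shape and the group mean as a line. Ccl2, Ccl7, Ccl20 and Cx3cl1 are highest in empty liver 2, while Ccl5 is the gene whose 3 UTOpiA livers all lie above the 3 empty livers.

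Ccl2 and Ccl7, both monocyte attractants that act through Ccr2, lie 9215 bases apart on the same strand of chromosome 10 (Ccl2 at chr10:69412017-69413870 and Ccl7 at chr10:69423086-69424979, in the build of the deposited tables, which the processing notes name as rn6). Ccl2 was at 0.599, 0.141 and 0.556 TPM in normal livers, which is 4, 1 and 4 reads. In the empty group it was at 30.4, 431 and 46.9 TPM, and in the UTOpiA group at 8.98, 21.7 and 2.6 TPM. No group overlapped another, and empty liver 2 stood at 11.2 times the mean of the other two empty livers. The ratio of TMM-scaled read sums, empty to normal, was 268 with a 95% interval of 141 to 587, which covers counting error only (edgeR adjusted p = 0.00258). Without empty liver 2 this ratio was 61.9. The log2 fold change from empty to UTOpiA livers was -3.86 (SE 1.06, 95% interval -6.29 to -1.44), with an edgeR adjusted p of 0.348 and a DESeq2 adjusted p of 0.0480. Over all alternatives run, the adjusted p of this difference ranged from 0.0103 to 0.816. Without empty liver 2 the log2 fold change was -1.70 with edgeR. Against normal livers, UTOpiA livers held 20.6 times the scaled reads (10.7 to 45.6, and 11.6 times without UTOpiA liver 2), which edgeR did not call (adjusted p = 0.0572) and DESeq2 did (adjusted p = 0.00277).

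Ccl7 was listed at 0, 0.692 and 0 TPM in normal livers, where it had 5 reads in all. Its level was 4.13, 34.5 and 12.5 TPM in the empty group and 2.10, 4.08 and 0.128 TPM in the UTOpiA group. All empty livers were above all UTOpiA livers by a narrow gap, and UTOpiA liver 3 fell within the normal range. The empty group held 49.6 times the scaled reads of normal livers (21.1 to 154, edgeR adjusted p = 0.00801), or 24.2 times without empty liver 2 and 32.8 times without normal liver 3. From empty to UTOpiA livers the log2 fold change was -2.92 (SE 1.03, edgeR adjusted p = 0.408), and -1.84 without empty liver 2. The UTOpiA group was not called against normal livers (edgeR adjusted p = 0.164).

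Ccl20, the ligand of Ccr6 on lymphocytes and dendritic cells, had no read in any normal liver (chr9:88918433-88921001). Empty livers were at 27.2, 110.2 and 32.0 TPM and UTOpiA livers at 7.86, 16.3 and 5.51 TPM. Every ACLF liver thus held Ccl20 reads, and the highest UTOpiA liver was below the lowest empty liver. Set against a floor of 3 counts per normal library, Ccl20 was at least 86.9-fold higher in the empty group and at least 16.4-fold higher in the UTOpiA group (edgeR adjusted p = 8.25e-04 and 0.00476). Without empty liver 2 the first bound was 44.8-fold. Its log2 fold change between the UTOpiA and empty groups was -2.39 (SE 0.62), with an adjusted p of 0.348 by edgeR and 0.00885 by DESeq2, and a range of 0.00137 to 0.816 over the alternatives. It was -1.43 with edgeR without empty liver 2.

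Cx3cl1 (chr19:10644244-10653800) was near the limit of detection in normal livers, at 0.0799, 0.113 and 0.111 TPM. It reached 7.12, 66.8 and 14.8 TPM in the empty group and 4.91, 9.84 and 3.19 TPM in the UTOpiA group. UTOpiA liver 2 was above empty liver 1, so the ACLF groups overlapped, and the exact permutation p was 0.2. The scaled reads of the empty group were 198 times those of normal livers (100 to 459, edgeR adjusted p = 8.55e-04), or 73.8 times without empty liver 2, and those of the UTOpiA group 46.9 times (23.6 to 109, edgeR adjusted p = 0.00578). From empty to UTOpiA livers the log2 fold change was -2.19 (SE 0.73, edgeR adjusted p = 0.396, DESeq2 adjusted p = 0.0728), and it was -0.71 with edgeR without empty liver 2. Over the alternatives its adjusted p ran from 0.00397 to 0.832, and DESeq2 called it without empty liver 1 or UTOpiA liver 2.

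The promoters of Ccl7, Ccl20 and Cx3cl1 are shown because these are the ligands of the set for which a promoter was found. Whether the motifs bear on the levels of these genes was not tested. They are the 100 bases before the annotated start in RefSeq (assembly GRCr8, not the build of the deposited tables), written 5′ to 3′ on the gene's strand. Capitals mark matches, on either strand, to an NF-kB consensus, to TGANTCA (the AP-1 motif) or to TATAAA. The Ccl7 window is chr10:67513995-67514094 on the plus strand, that of Ccl20 is chr9:91837059-91837158 on the plus strand, and that of Cx3cl1 is chr19:10242821-10242920 on the minus strand.
Ccl7: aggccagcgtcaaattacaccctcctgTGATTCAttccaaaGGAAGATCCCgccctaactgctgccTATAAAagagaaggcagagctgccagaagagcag
Ccl20: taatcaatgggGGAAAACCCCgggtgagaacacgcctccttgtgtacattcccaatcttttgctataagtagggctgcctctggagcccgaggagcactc
Cx3cl1: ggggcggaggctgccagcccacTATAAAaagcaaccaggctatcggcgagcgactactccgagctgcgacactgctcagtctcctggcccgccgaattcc
Ccl7 held all 3 motifs, with TGATTCA at -73 to -67 and GGAAGATCCC, the NF-kB match, at -59 to -50, counted back from the start site. Ccl20 held the NF-kB match GGAAAACCCC at -89 to -80, and Cx3cl1 held TATAAA alone. No match was found for Ccr1, Cx3cr1 or Ccr2 in windows of 250 bases before to 50 after the start, the windows that were searched for all genes. Of 33469 RefSeq promoters of that length, 7.51% held the NF-kB consensus, 7.33% TGANTCA and 14.2% TATAAA. Promoters were found for 6 of the 10 genes, and those of Ccl2, Ccl3, Ccl4 and Ccl5 were not analysed here.

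Ccl3 and Ccl4, macrophage inflammatory proteins, of which Ccl3 signals through Ccr1, were already present in normal livers. They are neighbours 13464 bases apart on opposite strands (Ccl3 at chr10:70869513-70871066 and Ccl4 at chr10:70884531-70886355). Ccl3 was at 1.32, 2.49 and 1.99 TPM in normal livers, 16.8, 26.2 and 11.9 TPM in the empty group, and 3.93, 6.01 and 2.01 TPM in the UTOpiA group. Every empty liver was above the other 6 livers, and UTOpiA liver 3 fell within the normal range. Its rise in the empty group was 2.73 on the log2 scale (SE 0.44, edgeR adjusted p = 0.00101). Against normal livers the UTOpiA group differed by 0.65 (SE 0.44, 95% interval -0.33 to 1.64, edgeR adjusted p = 0.262). From empty to UTOpiA livers Ccl3 had the lowest adjusted p of the 9 genes with either tool, 0.194 with edgeR and 0.00119 with DESeq2, at a log2 fold change of -2.07 (SE 0.41). Over the alternatives its adjusted p ran from 3.3e-04 to 0.674. Ccl3 overlaps the gene AC114233.1 on the opposite strand, and whether reads were counted by strand is not given in the sources used here.

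Ccl4 was at 4.16, 1.86 and 2.94 TPM in normal livers, 8.27, 25.8 and 8.26 TPM in the empty group, and 7.73, 7.56 and 4.64 TPM in the UTOpiA group. Empty liver 2 stood at 3.12 times the mean of the other two, which were close to UTOpiA livers 1 and 2. The gene rose by 1.72 on the log2 scale in the empty group (SE 0.53, edgeR adjusted p = 0.0224). This call was lost without empty liver 2 (0.93, edgeR adjusted p = 0.0857), without normal liver 2 (1.46, edgeR adjusted p = 0.0816) and without normal liver 3 (1.72, edgeR adjusted p = 0.0642), and the adjusted p over all alternatives ranged from 0.00232 to 0.0857. The UTOpiA group differed from the empty group by -0.92 (SE 0.50, 95% interval -2.03 to 0.20, edgeR adjusted p = 0.562), and by -0.13 without empty liver 2. The TPM ratio of Ccl3 to Ccl4 was 2.04, 1.02 and 1.45 in empty livers and 0.508, 0.796 and 0.432 in UTOpiA livers. Ccl3 was thus the higher of the pair in every empty liver and the lower in every UTOpiA liver, while the normal livers spread over both sides at 0.318, 1.33 and 0.677.

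Ccl5 (RANTES, chr10:70739800-70744315), a product of T and NK cells as well as of stimulated tissue cells, followed another order than the other ligands. It was at 6.65, 6.26 and 6.39 TPM in normal livers, 18.8, 14.7 and 18.5 TPM in the empty group, and 37.6, 20.9 and 29.1 TPM in the UTOpiA group. In TPM the 3 groups did not overlap and stood in the order normal, empty, UTOpiA. This order without overlap was shown in TPM by 0.248% of all tested genes. The gap between the ACLF groups was very narrow on TMM-scaled counts. There UTOpiA liver 2 was at 5.303 CPM (105 reads) and empty liver 1 at 5.289 CPM (102 reads). The reverse placing of the ACLF groups in TPM had UTOpiA livers between normal and empty livers and no overlap. It was seen in Ccl2, Ccl4 and Ccl20 and in 3.13% of all tested genes. Ccl5 rose by 1.9 on the log2 scale from normal to UTOpiA livers (SE 0.31, edgeR adjusted p = 0.00169). From empty to UTOpiA livers the difference was 0.99 (SE 0.29, 95% interval 0.33 to 1.65, edgeR adjusted p = 0.362). Of the fits run, the one past the threshold was DESeq2 without UTOpiA liver 2, the lowest of its group, at 1.23 on the log2 scale (adjusted p = 5.5e-04), and the adjusted p over all alternatives ran from 5.5e-04 to 0.816. The difference of 0.91 between empty and normal livers was called where its fold change passed 2, which was without empty liver 2, with limma on the TPM scale and with at least 10 counts required in every library. The summed TPM of 11 lymphocyte marker genes was 107, 69.8 and 76.4 in empty livers and 81.5, 109 and 37.6 in UTOpiA livers. Cd4 was the largest part of this sum, at 82.4, 53.1 and 41.7 TPM in empty livers and 34.0, 85.4 and 22.7 TPM in UTOpiA livers. Of the 10 that were tested, 7 had positive and 3 negative log2 fold changes from empty to UTOpiA livers (median 0.28), and none passed edgeR's or DESeq2's test.

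**Figure D2:**
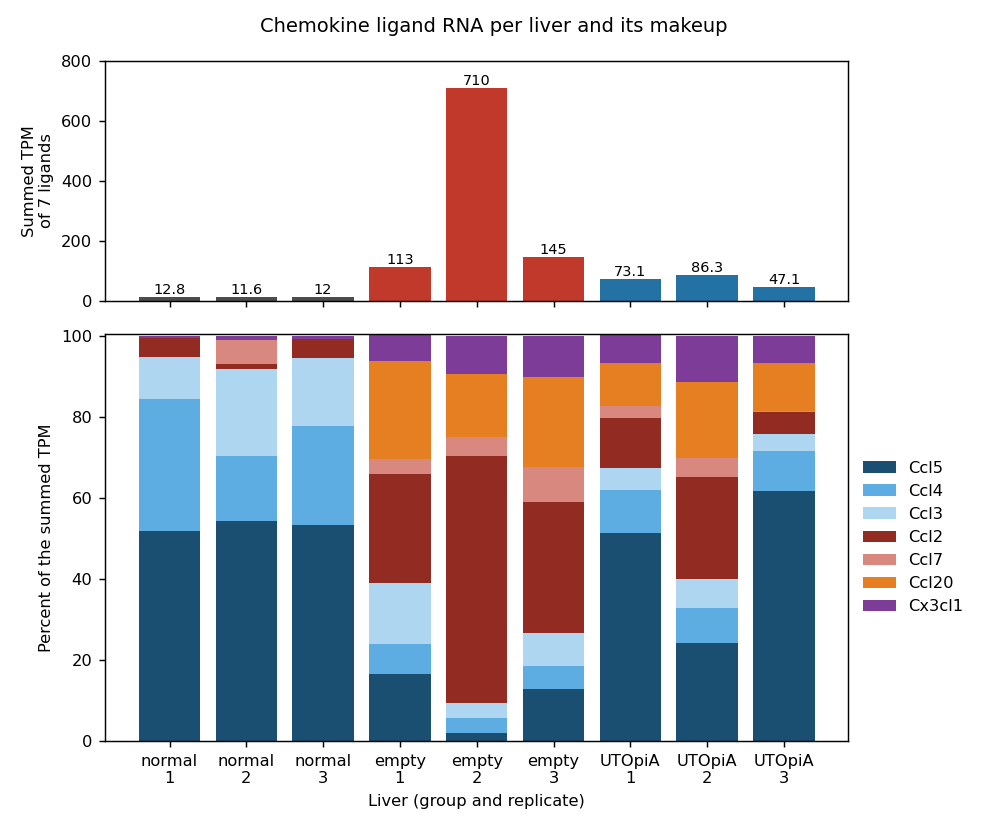
Summed TPM of the 7 ligands in each liver (upper bars, linear axis from 0) and the percent of that sum from each ligand (lower bars). Ccl5 makes up the largest share in normal livers and in UTOpiA livers 1 and 3, and Ccl2 in all empty livers and in UTOpiA liver 2.

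The makeup of the ligand RNA differed between the groups as well as its amount. The 7 ligands summed to 12.8, 11.6 and 12 TPM in normal livers, 113, 709.6 and 145 TPM in empty livers, and 73.1, 86.3 and 47.1 TPM in UTOpiA livers. All 3 UTOpiA livers were below all 3 empty livers and above all normal livers. Ccl5 supplied 51.9%, 54.2% and 53.3% of the sum in normal livers, 16.7%, 2.08% and 12.8% in empty livers, and 51.4%, 24.2% and 61.6% in UTOpiA livers. Ccl2 supplied 27.0%, 60.8% and 32.3% in empty livers and 12.3%, 25.1% and 5.51% in UTOpiA livers, and at most 4.67% in normal livers. The TPM ratio of Ccl2 to Ccl5 accordingly lay between 1.62 and 29.3 in the empty group and between 0.0894 and 1.04 in the UTOpiA group. UTOpiA liver 3 was at 0.0894 on this ratio, where normal livers were at 0.090, 0.0225 and 0.087. Ranked by mean TPM, the ligands in empty livers ran from Ccl2 to Ccl4, and every neighbour in that order overlapped the next. In normal livers Ccl5 stood above Ccl4 without overlap, and Ccl4 and Ccl3 overlapped.

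The receptors rose in ACLF livers of both groups and did not separate the ACLF groups from each other. Ccr1, a receptor of Ccl3, Ccl5 and Ccl7 on monocytes and neutrophils (chr8:132996649-133002201), was at 0.406, 0 and 0.0629 TPM in normal livers. It was at 12.7, 1.88 and 12.9 TPM in empty livers and 2.58, 9.87 and 3.00 TPM in UTOpiA livers. Empty liver 2, the highest for 6 of the 7 ligands, was the lowest of the 6 ACLF livers for Ccr1. The scaled reads were 42.7 times those of normal livers in the empty group (20.6 to 107, edgeR adjusted p = 0.00380) and 27.5 times in the UTOpiA group (13.1 to 69.0, edgeR adjusted p = 0.00994). Few normal reads stand behind these ratios, which were 204 and 131 without normal liver 1, 28 and 18 without normal liver 2, and, for the UTOpiA group, 16.3 without UTOpiA liver 2. The ACLF groups differed by -0.71 on the log2 scale (SE 0.77, 95% interval -2.44 to 1.03, edgeR adjusted p = 0.782, exact permutation p = 0.4). Reads of Ccr1l1, a near copy of Ccr1, numbered 0 to 2 in every library.

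Cx3cr1, the fractalkine receptor of patrolling monocytes, macrophages and NK cells (chr8:128740756-128754514), was at 0.0942, 0.0887 and 0.263 TPM in normal livers. Its level was 2.87, 1.64 and 6.42 TPM in empty livers and 1.62, 9.40 and 1.23 TPM in UTOpiA livers, so the UTOpiA group held both the highest and the lowest ACLF liver. The scaled reads were 16.9 times those of normal livers in the empty group (7.07 to 52.9, edgeR adjusted p = 0.00763) and 22.0 times in the UTOpiA group (9.21 to 68.7, edgeR adjusted p = 0.00761). Leaving out a library moved the first ratio to 11 (empty liver 3) or 28 (normal liver 3) and the second to 8.29 (UTOpiA liver 2) or 36.3 (normal liver 3). With limma on log2(TPM + 1) and no filter on TPM, the UTOpiA group was not called against normal livers (adjusted p = 0.0665). The difference between the ACLF groups was 0.25 (SE 0.70, 95% interval -1.31 to 1.81, edgeR adjusted p = 0.931), and its sign turned without UTOpiA liver 2 (-0.99) or without empty liver 2 (-0.08). The TPM ratio of the ligand Cx3cl1 to Cx3cr1 was 2.48, 40.8 and 2.31 in empty livers and 3.04, 1.05 and 2.6 in UTOpiA livers, and apart from empty liver 2 the ACLF groups overlapped.

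**Figure D3:**
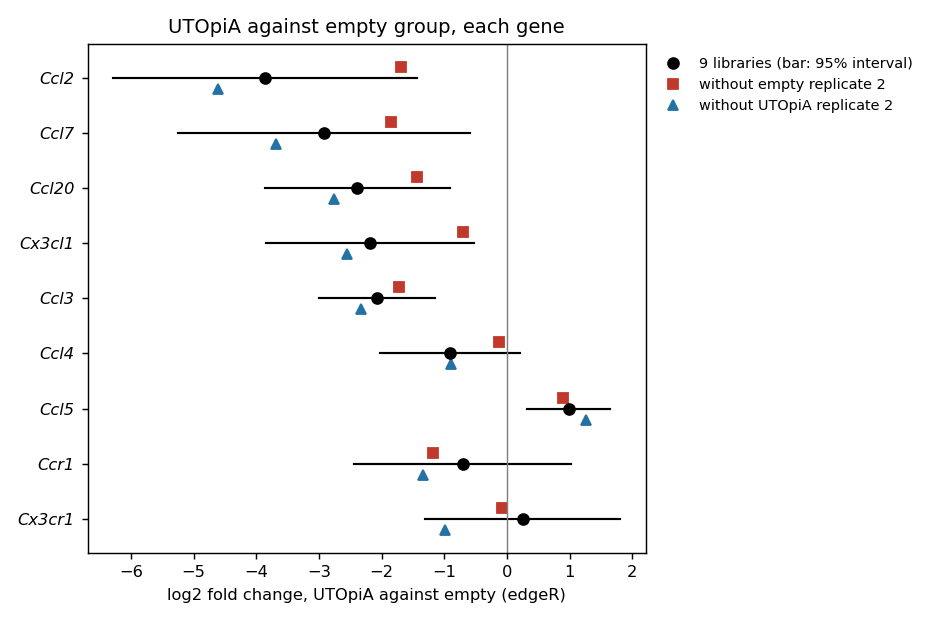
Log2 fold changes of the 9 genes between the UTOpiA and empty groups (edgeR), with bars for the 95% interval of the fit to all 9 libraries, and the values without empty liver 2 (squares) and without UTOpiA liver 2 (triangles). In the full fit 7 points lie below 0, Ccl5 and Cx3cr1 lie above, and leaving out empty liver 2 moves the 6 ligands other than Ccl5 toward 0.

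Within the 6 ACLF livers, the ligands and the receptors ordered the livers differently. Empty liver 2 was the highest for Ccl2, Ccl3, Ccl4, Ccl7, Ccl20 and Cx3cl1 and the lowest for Ccl5 and Ccr1, and UTOpiA liver 3 was the lowest for those 6 ligands and for Cx3cr1. On log2-scaled counts over these 6 livers, Ccl2 correlated at r = 0.981 with Ccl20, 0.964 with Cx3cl1 and 0.956 with Ccl7, at -0.848 with Ccl5 and at -0.22 with Ccr1. The 2 receptors correlated at 0.759. These values describe 6 livers of 2 groups, share library size and composition, and carry no test. Among 12996 genes compared in the same way, the nearest to Ccl2 were Ncoa7 and Birc3 (both 0.995), to Ccl20 Fer and Cxcl2 (both 0.991), and to Cx3cl1 Peli1 (0.999) and Rhoh (0.991). Ccl7 was nearest to Psors1c2 and Slc37a1 (both 0.992), Ccl3 to Efl1 (0.987) and Rnf20 (0.984), and Ccl4 to Fubp3 (0.993) and Bach1 (0.992). For Ccl5 they were Marchf2 (0.999) and N4bp2 (0.996), for Cx3cr1 Fzd3 (0.997) and Galnt7 (0.996), and for Ccr1 LOC100911847 (0.990) and Ostf1 (0.987).

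Cytokines and NF-kB pathway genes were summed over a list of 16, which holds genes induced by NF-kB as well as genes that act upstream of chemokines. The sum was 104 to 106 TPM in normal livers, 385, 1629 and 423 TPM in empty livers, and 309, 401 and 174 TPM in UTOpiA livers. Its largest part in every ACLF liver was Nfkbia. That gene was at 114, 634 and 150 TPM in empty livers and 86.4, 113 and 42.5 TPM in UTOpiA livers. The 6 ACLF livers stood in the same order on this sum and on Cx3cl1, a pair picked with its values in view. Of the 13 genes of this list that were tested, edgeR called 9 higher than normal in empty livers, beside 20.7% of all tested genes, and 7 in UTOpiA livers, beside 18.2%, with none lower. DESeq2 called 1 lower in UTOpiA livers, beside 6.79% of the genes to which it gave an adjusted p. This was Il1a, at 9.23, 12.3 and 11.9 TPM in normal livers and 2.81, 4.18 and 1.19 TPM in UTOpiA livers (log2 -2.43, DESeq2 adjusted p = 0.0197), and edgeR called it too without empty liver 2 or 3. DESeq2 lost the call without normal liver 2 or 3 or any 1 of the UTOpiA livers, with adjusted p of 0.0502 to 0.178. Between the ACLF groups all 13 log2 fold changes were negative, with a median of -1.22, and edgeR called 0, while 6 had an unadjusted p under 0.05, beside 4.56% of all tested genes. DESeq2 called 0 of the 10 to which it gave an adjusted p, and gave none to Il6, Rel and Tnfaip3. Nfkbia, which encodes the inhibitor IkBa and is itself induced by NF-kB, had a log2 fold change of -1.77 from empty to UTOpiA livers (SE 0.60, edgeR adjusted p = 0.405), or -0.55 without empty liver 2. DESeq2 called this difference without empty liver 1, empty liver 3 or UTOpiA liver 2. Tlr4, the LPS receptor, had the smallest difference of the 13 (95% interval -0.88 to 0.87), and its sign turned when single libraries were left out.

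Markers of the cells that carry the receptors moved as well, and their part in the results above was not tested. The summed TPM of 10 monocyte and macrophage markers, which hold none of the 9 genes, was 65.2 to 87.9 in normal livers, 1395, 659 and 1409 in empty livers, and 502, 1479 and 298 in UTOpiA livers, which is the order of Cx3cr1 over the 6 ACLF livers. This pair too was picked with its values in view, and Ccr1 stood in another order (Spearman's rho 0.6 with this sum, against 1 for Cx3cr1, n = 6). Lyz2 was the largest part of the sum in ACLF livers. It was at 824, 282 and 783 TPM in empty livers and 282, 1043 and 169 TPM in UTOpiA livers. On Lyz2 alone empty liver 1 stood above empty liver 3, whereas on the sum these livers were close and stood the other way. All 10 monocyte and macrophage markers were called higher than normal in empty livers, beside 20.7% of all tested genes, and 9 in UTOpiA livers, beside 18.2%. Between the ACLF groups all 10 were lower in the UTOpiA group by the sign of the fold change, with none called by edgeR and 1 by DESeq2, beside 0.518%. Kupffer cell markers summed to 486 to 582 TPM in normal livers, 1719 to 2336 in the empty group and 881 to 2197 in the UTOpiA group. The complement genes C1qa, C1qb and C1qc, which other macrophages also express, were higher in every ACLF liver than in every normal liver. The Kupffer cell receptor Clec4f was at 122, 115 and 113 TPM in normal livers, 32.7, 228 and 14.3 TPM in empty livers and 136, 23.1 and 88.6 TPM in UTOpiA livers. Biliary markers, whose cells can make Ccl2, Ccl20 and Cx3cl1, summed to 15.0 to 25.4 TPM in normal livers, 333, 477 and 705 in empty livers and 208, 441 and 138 in UTOpiA livers. Stellate cell markers summed to 105 to 116 TPM in normal livers, 855 to 1054 in the empty group and 449 to 1023 in the UTOpiA group, and endothelial markers to between 66.4 and 139 TPM in all 9 livers. Of 6 endothelial genes tested against normal livers, 1 was called higher in each ACLF group, beside 20.7% (empty) and 18.2% (UTOpiA) of all tested genes, and 1 lower, beside 11.1% and 6.81%. Hepatocyte markers summed to 149790 to 162610 TPM in normal livers, 31881 to 57187 in the empty group and 37218 to 57683 in the UTOpiA group. The 10 neutrophil markers summed to 827, 2711 and 1525 TPM in empty livers and 5533 to 6697 TPM in UTOpiA livers, but that order was set by Lcn2, an acute-phase gene also made by hepatocytes, at 290.5, 2523 and 417 TPM against 6310, 5694 and 5359 TPM. The neutrophil gene S100a8 was at 250.1, 75.4 and 503 TPM in empty livers and 177, 236 and 84.6 TPM in UTOpiA livers, and Ltf was at 0 in all 9 livers.

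**Figure D4:**
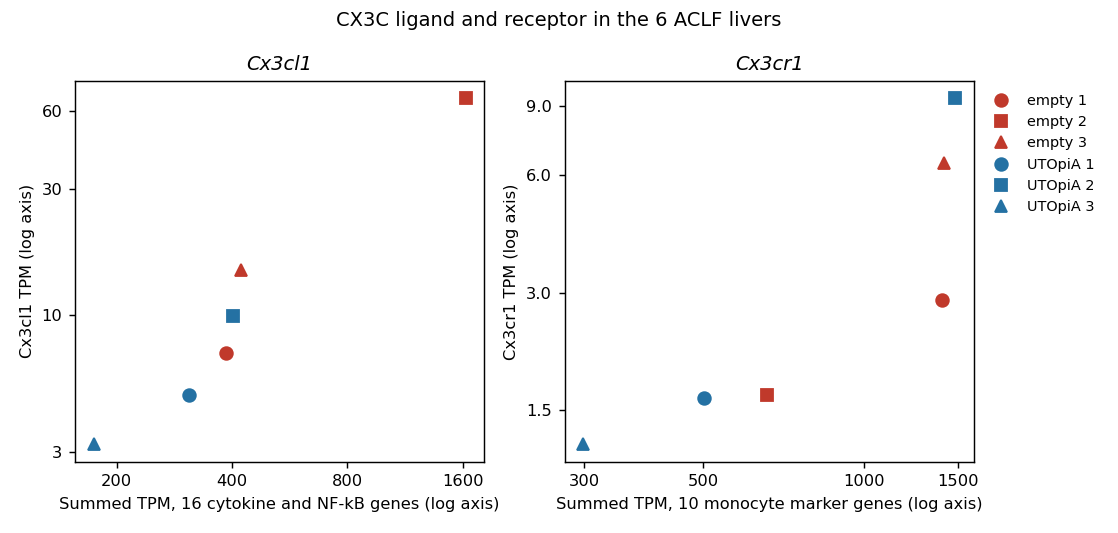
Left, Cx3cl1 TPM against the summed TPM of 16 cytokine and NF-kB pathway genes, and right, Cx3cr1 TPM against the summed TPM of 10 monocyte markers, in the 6 ACLF livers (all axes logarithmic, marker shape by replicate). In each panel the livers stand in the same order on both axes, with empty liver 2 highest on the left and UTOpiA liver 2 highest on the right.

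Of 14 other ligands, 8 passed the filter on low counts. Against normal livers edgeR called 3 of them higher in the empty group, beside 20.7% of all tested genes, and 2 in the UTOpiA group, beside 18.2%. Ccl21, the lymphatic ligand of Ccr7, was at 3.14, 3.38 and 3.33 TPM in normal livers, 94.3, 60.6 and 59.4 TPM in empty livers and 25.2, 18.7 and 21.7 TPM in UTOpiA livers. It rose by 3.93 (log2, SE 0.31, edgeR adjusted p = 5.8e-05) in the empty group. The 3 groups did not overlap, and the UTOpiA group was lower than the empty group by the sign of the fold change (log2 -1.5, SE 0.27, edgeR adjusted p = 0.178), a difference that DESeq2 called (adjusted p = 5.82e-04). Ccl19, the other ligand of Ccr7, rose by 5.32 in the empty group (SE 0.91, edgeR adjusted p = 0.00166, and by 4.45 without empty liver 3) and by 4.58 in the UTOpiA group (SE 0.91, edgeR adjusted p = 0.00471), both against normal livers. Ccl28, a mucosal ligand, was called in the empty group (4.71, SE 1.05, edgeR adjusted p = 0.00529). In the UTOpiA group it was called by DESeq2 (adjusted p = 0.0188) and not by edgeR (3.08, SE 1.11, adjusted p = 0.0517). The difference between the ACLF groups did not pass (-1.63, edgeR adjusted p = 0.504, and -0.69 without empty liver 3). Ccl28 had reads in 1 of the normal livers, so its fold changes against them rest on few reads, and edgeR called the UTOpiA group higher without normal liver 2, empty liver 2 or empty liver 3. DESeq2 lost this call without normal liver 1, normal liver 3 or UTOpiA liver 2, with adjusted p of 0.0698 to 0.0833. The CC ligands with the highest mean TPM over the 9 livers were outside the set and were not called in any comparison. These were Ccl9 and Ccl6, rodent chemokines without a direct human counterpart. Ccl9 was at 646 to 779 TPM in normal livers, 997, 2568 and 847 TPM in empty livers and 2251, 970.3 and 1087 TPM in UTOpiA livers, and Ccl6 at 82.7 to 354 TPM over all 9 livers. In empty liver 2, Ccl6 was at 171 TPM, below Ccl2.

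Among the other receptors, Ccr6, which binds Ccl20, had no read in normal livers and at most 0.971 TPM in ACLF livers. Atypical receptors, which bind chemokines without classical signalling, were tested for 4 of 5 genes listed. The scavenging receptors Ackr2 (3.48) and Ackr3 (2.80) and the chemerin-binding Ccrl2 (3.43) were called higher in the empty group by edgeR, with adjusted p of 0.0139, 0.0109 and 0.0144, beside 20.7% of all tested genes. Without empty liver 2 the edgeR values of Ackr3 and Ccrl2 were 1.4 and 1.97. The edgeR call of Ccrl2 was lost without normal liver 2 (adjusted p = 0.0558) or 3 (adjusted p = 0.0550), and Ackr2 had reads in 1 of the normal livers. None of the 4 was called higher than normal in the UTOpiA group, beside 18.2%, and all 4 had negative log2 fold changes from empty to UTOpiA livers, with a median of -2.03 and none called by edgeR or DESeq2. Of 6 genes whose products cut or shed chemokines, edgeR called 4 higher in the empty group, beside 20.7% of all tested genes, and 3 in the UTOpiA group, beside 18.2%. Among the 4 was the fractalkine sheddase Adam10 (log2 1.01, SE 0.20, edgeR adjusted p = 0.00279), close to the fold threshold and below it without normal liver 1 or 2 or empty liver 1. Adam17, the other sheddase, differed by 0.91 (SE 0.17, edgeR adjusted p = 0.00206), below the fold threshold, and by 1.03 without empty liver 2. Of 19 tested genes of signalling downstream of the receptors, 14 were called higher than normal in each ACLF group, beside 20.7% (empty) and 18.2% (UTOpiA) of all tested genes. Between the ACLF groups edgeR called 0 and DESeq2 called 2, both lower, beside 0.518%.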

How the data were processed

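Total RNA of rat liver tissue was selected for poly(A), made into directional libraries and sequenced as paired-end reads of 150 bases. Per the methods, the authors trimmed reads with Cutadapt 1.9.1 (the processing notes list Trimmomatic), aligned them with HISAT2 2.0.1 and counted them per gene with featureCounts 2.6.0. They deposited raw counts and TPM. The processing notes name the build rn6, the methods a mouse build, and the labels and methods name different library kits. Samples were grouped by their labels.

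Genes were kept by filterByExpr (14089 genes) and fitted with edgeR 4.0.16 in R 4.3.3 (TMM, all 9 libraries, robust quasi-likelihood test, two-sided). Values were compared with DESeq2 1.42.0, with limma 3.58.1 on log2(TPM + 1) and log2(TPM + 0.1) for genes with a mean TPM of at least 1, with other filters and scalings, and with each library left out. TPM of single genes were compared by two-sided exact permutation tests. Ratios of read sums carry exact 95% binomial intervals, and 0 was bounded by 3 counts per library. These ratios and bounds, and the fold changes of named genes outside the set, were also computed with each library left out, a step added after the data had been seen. The fit was tested on simulated data. Likeness was Pearson's r of log2 CPM over the 6 ACLF livers for genes with a mean CPM of at least 1, and the nearest 2 genes were named. The labels call the samples biological replicates and do not say more, so p-values measure the spread between these samples. The genes and the lists were chosen with earlier results of these data known. Genes of the set were all named, and other genes were named from written lists of chemokine family, signalling, inducer and marker genes after their values were seen. Some items are not reported here.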

Additional observations from a re-analysis of the deposited data

How the results depend on the processing

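Each library was left out in turn with edgeR and with DESeq2. Over these fits, 7 to 8 of the 9 genes were called higher than normal in empty livers and 5 to 7 in UTOpiA livers. Over all tested genes, the calls higher than normal ran from 2621 of 14295 to 3287 of 16153 in empty livers. In UTOpiA livers they ran from 2091 of 14335 to 2909 of 15763. Between the UTOpiA and empty groups 0 to 4 of the 9 were called lower and 0 to 1 higher, with all edgeR fits at 0 of the 9. Over all tested genes, edgeR called 26 higher and 22 lower of 14398 without empty liver 2. Without UTOpiA liver 2 it called 32 and 17 of 14335. DESeq2 called 353 higher and 138 lower of 13774 without empty liver 2, and 229 and 348 of 13755 without UTOpiA liver 2. Without UTOpiA liver 1 it called 23 and 26 of 15750. Of the 9 genes, DESeq2 with all libraries called 3 lower, and 1 without UTOpiA liver 1 or 3. A filter of at least 10 counts in every library left 2 of the 9 genes, Ccl4 and Ccl5, and the other 7 were not tested. Against normal livers this filter gave 2 called higher in empty livers, beside 1644 of 11342 tested genes. In UTOpiA livers it gave 1, beside 1384. Of the other chemokine ligands and receptors, this filter gave 3 called between the empty group and normal livers (6 to 9 with a library left out). Between the UTOpiA and empty groups DESeq2 called 1 (0 to 3 over the edgeR and DESeq2 fits with a library left out). DESeq2 called Ccl21 in every such fit, with adjusted p of 3.0e-04 to 0.0119, and edgeR called it in none. Between the UTOpiA group and normal livers DESeq2 called 5, the fit with no filter on counts 5, and limma on log2(TPM + 0.1) 6 (3 to 6 with a library left out). The difference in Cx3cr1 between the UTOpiA and empty groups turned to -0.11 with limma on log2(TPM + 1), with or without a filter on TPM, and to -0.21 on log2(TPM + 0.1), and ranged from -1.04 to 0.84 with a library left out (without UTOpiA liver 2, -0.99 with edgeR and -1.04 with DESeq2, and without empty liver 2, -0.08 and -0.11). That in Tlr4, near 0, ranged from -0.41 to 0.25 with a library left out with edgeR and turned to 0.20 and 0.025 (without empty liver 1 or 3) and to 0.055 and 0.24 (without UTOpiA liver 1 or 3) with DESeq2. The causes were not tested. With the replicate number as a block, Ccl4 was no longer called between the empty group and normal livers (1.59, edgeR adjusted p = 0.0553). That fit called 7 of the 9 genes higher in the empty group, beside 2746 of 14089 tested genes. It also called Ccl2 between the UTOpiA group and normal livers (edgeR adjusted p = 0.0231). Same-numbered libraries of different groups correlated at -0.183 to 0.064 in their deviations from the group means, so the numbers were not taken to pair the livers. Genes with fewer than about 10 reads in a whole group (Ccl2, Ccl7, Cx3cl1, Cx3cr1 and Ccr1 in normal livers) have fold changes that rest on single reads.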
